A study of Mus musculus with 6 samples.

Results

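The interleukin-1 (IL-1) family comprises secreted danger signals, the receptors that read them and the proteins that block them. Its 9 members examined here were the cytokines Il18, Il1a, Il1b and Il33, the inhibitors Il1rn and Il18bp, the decoy receptor Il1r2, and the signalling receptor chains Il1r1 and Il1rap. They were found as all probe sets that the platform annotation assigns to exactly 1 of these gene symbols, which gave 9 of the 18194 genes named on the array and 16 of its 45101 probe sets. Il18 was chosen by its measured signal, which was lower in mutant skin, so its values are a description and carry no test. The other 8 genes were taken by family.

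RNA came from 3 mouse skin samples labelled Tcfap2c mutant and 3 labelled control, all at embryonic day 16.5, with 1 Affymetrix array per sample. The sample titles do not say whether a sample was 1 embryo or a pool. Tcfap2c, now named Tfap2c, encodes the epidermal transcription factor AP-2 gamma. The labels give no allele, strain, sex or Cre driver and do not say how control embryos differ in genotype, and the free-text description of the controls also mentions the mutation. Nothing says whether embryos came from separate litters, so the tests measure only the spread between these 6 samples.

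Keratinocytes of the epidermis are a standing store of IL-1 family cytokines. Pro-IL-18 and pro-IL-1 beta need cleavage, classically by caspase-1 in an inflammasome, before they are active, whereas IL-1 alpha and IL-33 act as alarmins when cells are damaged. IL-1 alpha and IL-1 beta signal through IL-1 receptor 1 paired with the accessory protein Il1rap, and MyD88 and IRAK kinases carry the signal to NF-kappa B. IL-1 receptor antagonist (Il1rn) occupies the receptor without signalling, IL-1 receptor 2 binds the cytokine without a signalling tail, and IL-18 binding protein captures IL-18.

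Values are MAS5 signals, a linear intensity per probe set that the authors had scaled to a trimmed mean of 500 on each array (median signals 110.4 to 131.5). Differences are mutant minus control on the log2(signal + 24.5) scale, which understates changes of dim probe sets. Probe sets whose mean lay above a signal of about 114.5 were tested, 22518 in all. Background was gauged from 4 Y-linked probe sets, chosen after the data were seen, whose signal where Xist was high (3 samples) had a median of 6.92 and a maximum of 40.6. Mutant sample 1 stood apart: its 6 decidual and uterine markers summed to 50167, against 727 and 659 in mutant samples 2 and 3 and 342 to 497 in control samples. Its 6 smooth muscle markers summed to 60888, against 7432 and 7878 in the other mutant samples and 8200 to 9846 in control samples. Xist was high in mutant sample 1 and control samples 1 and 2 and low in the other 3 samples. Epidermal identity was clear in every sample, with Krt14, a basal keratin, between 10490 and 20085 in mutant and between 15743 and 18496 in control samples.

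Il18, the cytokine that primes interferon gamma production, had lower signal in mutant than in control skin. It had 4168, 2212 and 1292 in mutant samples 1, 2 and 3, against 5176, 5623 and 7153 in control samples 1, 2 and 3. Every mutant sample lay below every control sample, and the sample that stood apart was the mutant nearest to the controls. It averaged 2557 ± 1469 in the 3 mutants and 5984 ± 1037 in the 3 controls (mean ± SD), so the mutant mean was 42.7% of the control mean. On the log2 scale the difference was -1.36 (SE 0.35), and -1.79 without mutant sample 1. Mutant samples spanned a 3.23-fold range and control samples a 1.38-fold range. Il18 was measured by 1 probe set, so no second probe set checks it.

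The Xist level of the samples was set beside these values. Among the samples with high Xist, Il18 differed by -0.37 (1 mutant, 2 controls), and among those with low Xist by -2.06 (2 mutants, 1 control). The 1 mutant with high Xist was mutant sample 1, the sample that stood apart. In this and the later splits by Xist, Xist level and that sample's decidual, uterine and muscle RNA cannot be told apart. With Xist as a covariate, a setting added after the data were seen, the difference was -1.22. The part of the decidual, uterine and muscle RNA in the Il18 signal of mutant sample 1 was not tested.

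The stretch before the Il18 start is shown because AP-2 factors recognise a GC-rich sequence and Il18 had the largest difference of the 9 genes. It is the 250 bases before the annotated start in RefSeq (GRCm38.p6, chr9:50554450-50554699, plus strand), and the capitals mark its only CG.
Il18: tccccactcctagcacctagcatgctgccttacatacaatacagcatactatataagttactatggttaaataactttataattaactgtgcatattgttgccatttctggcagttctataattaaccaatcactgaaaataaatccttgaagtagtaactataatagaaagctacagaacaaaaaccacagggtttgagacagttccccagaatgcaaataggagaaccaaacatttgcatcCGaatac
Across all 32851 annotated start windows the median number of CG was 6, and 18.8% of windows held 1 or 0. The AP-2 letters GCCNNNGGC, searched on both strands, do not occur in this window.

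The same search covered 13 start windows of all 9 genes. GCCNNNGGC occurred in 2 of the 13, against 13.7% of all windows, and the AP-1 letters TGANTCA in 2 of the 13, against 6.75% of all windows. No match of one motif overlapped the other. The AP-2 matches lay 20 bases before the first Il33 start (chr19:29925082-29925111, plus strand) and 26 bases before the second Il1r1 start (chr1:40266549-40266578, plus strand). The AP-1 matches lay 12 bases before the Il1a start (chr2:129309973-129310002, minus strand) and 141 bases before the first Il1rn start (chr2:24336707-24336736, plus strand). Each is printed as 30 bases with the matching letters in capitals, to set the sequence beside the signals of these 4 genes.
Il33: gggaataaaaaGCCCAAGGCgctctgcgag
Il1r1: gctagctccgaGCCCGAGGCtgaggacgct
Il1a: taaaaaggcagagaagccTGACTCAgactt
Il1rn: cttctgctagacTGAGTCAcgcctctggaa
A match describes the letters only, and binding was not measured in these data.

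**Figure D1:**
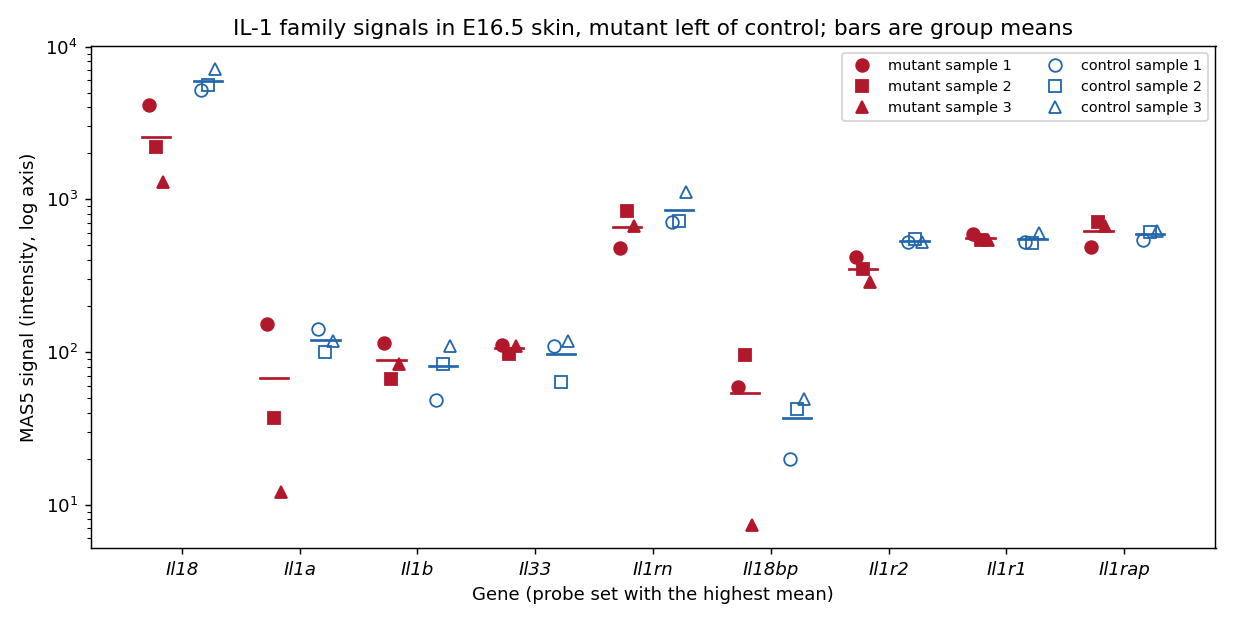
MAS5 signal (log axis) of the 9 family genes in each sample, mutant left of control, with group means as bars. All 3 mutant samples lie below all 3 control samples for Il18 and Il1r2, and Il1a is low in mutant samples 2 and 3 only.

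Il1a, the alarmin that keratinocytes hold ready-made, was dim and split the mutant samples. It read 153.0, 36.8 and 12.2 in mutant samples 1, 2 and 3, against 140.6, 100.5 and 118.5 in control samples 1, 2 and 3. Mutant samples 2 and 3 lay below all controls and within the range of the Y-linked background, while mutant sample 1 had the highest value of the 6. The log2 difference was -0.96, and leaving out mutant sample 1 made it -1.60, while leaving out mutant sample 3 made it -0.46. Il1a did not pass the filter on dim probe sets, and in the fit without a filter it did not pass (limma unadjusted p = 0.104, SE 0.53). Within the samples with high Xist it differed by 0.31, and within those with low Xist by -1.59.

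Il1b, the cytokine of activated myeloid cells, and Il33, the nuclear alarmin of barrier epithelium and vessels, showed overlapping groups. Il1b had 114.9, 66.2 and 82.7 in mutant samples, against 48.4, 83.9 and 109.7 in control samples. Il33 had 111.3, 97.6 and 108.8 in mutant samples, against 109.0, 63.2 and 117.7 in control samples. Their log2 differences were 0.12 (SE 0.36) and 0.14 (SE 0.31), and neither gene passed the filter. The highest Il1b signal was that of mutant sample 1, where 13 leukocyte markers summed to 19733, against 9844 and 13441 in the other mutant samples and 12419 to 13114 in control samples. Of those markers, 11 passed the filter (median difference 0.04), while Cd207, the Langerhans cell lectin, was at 43.3, 25.7 and 13.3 in mutant samples, against 11.9, 5.61 and 45.0 in control samples. The part of leukocytes in the Il1b signal was not tested.

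Among the blockers, Il1r2, the decoy receptor, had separate groups. It read 415.9, 351.2 and 285.9 in mutant samples 1, 2 and 3, against 520.9, 551.2 and 522.3 in control samples 1, 2 and 3. Mutant samples were lower in 3 of 3 cases, and mutant sample 3 was the lowest, as it was for Il18. It averaged 351 ± 65 in the 3 mutants and 531 ± 17 in the 3 controls (mean ± SD). On the log2 scale this is -0.58 (SE 0.18). This did not pass limma's test after adjustment over all probe sets (unadjusted p = 0.00939, adjusted p = 0.9999). Without mutant sample 1 the difference was -0.70 and the limma adjusted p = 0.25. With array weights, where mutant sample 3 weighed 3.13 and mutant samples 1 and 2 weighed 0.257 and 0.56, it was -0.77 and passed (limma adjusted p = 0.0468), with 0.471% of all probe sets called in that fit. Il1r2 differed by -0.35 within the samples with high Xist and by -0.68 within those with low Xist.

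Il1rn, the receptor antagonist, was read by 3 probe sets that all had negative differences. The probe set with the highest mean gave 481.1, 840.8 and 663.6 in mutant samples, against 707.9, 722.8 and 1111 in control samples. These groups overlapped, with mutant sample 1 the lowest and control sample 3 the highest of the 6. That difference was -0.35 (SE 0.24, limma unadjusted p = 0.186). Leaving out mutant sample 1 made it -0.15, leaving out control sample 3 -0.14 and leaving out mutant sample 2 -0.53. A second probe set gave 327.2, 355.2 and 285.8 in mutant samples, against 386.1, 398.0 and 583.3 in control samples. There the groups were apart, with a log2 difference of -0.45 (SE 0.20) and a limma unadjusted p = 0.0526. Without control sample 3 it was -0.27 (limma unadjusted p = 0.218). The third differed by -0.59 (SE 0.31), or -0.29 without mutant sample 1 and -0.32 without control sample 3.

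Il18bp, which neutralises IL-18, was near background. It had 59.1, 95.9 and 7.30 in mutant samples, against 20.01, 42.2 and 49.3 in control samples. Its log2 difference of 0.18 (SE 0.50) lay within the spread of the mutant samples, and the gene did not pass the filter.

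The signalling receptor chains did not separate the groups. Il1r1, the receptor for IL-1 alpha and beta, had 594.7, 536.6 and 542.0 in mutant samples, against 526.4, 514.3 and 598.9 in control samples. Its log2 difference was 0.03 (SE 0.15). Il1rap, the shared accessory chain, had 486.8, 713.0 and 667.8 in mutant samples, against 542.3, 606.8 and 618.2 in control samples. Its log2 difference was 0.06 (SE 0.18), and mutant sample 1 was the lowest of the 6. A second probe set of Il1rap above the filter differed by -0.26 (SE 0.26) and by 0.01 without mutant sample 1. The other 3 probe sets of Il1rap had signals of 2.06 to 102.9 and the second of Il1r1 1.36 to 21.3 over all samples.

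Over the family, 8 of the 16 probe sets passed the filter, which covers 5 of the 9 genes. Of the 4 tested genes other than Il18, 0 passed a limma adjusted p of 0.05, where 0.00444% of all tested probe sets passed. At an unadjusted p under 0.05 there was 1 of 4, Il1r2, against 3.42% of all tested probe sets (1.97% lower and 1.45% higher). In the fit without a filter 0 of the 8 genes passed (0.00222% of all probe sets), and 1 of 8 had an unadjusted p under 0.05 (4.01% of all). Of the 7 tested probe sets outside Il18, mutant and control samples were apart in 2, both lower in mutant samples, where 5.03% of all tested probe sets were apart in that direction and 3.3% in the other. Without mutant sample 1, 0 of 4 genes passed the adjusted threshold (0.173% of all) and 1 of 4 the unadjusted one (7.15% of all).

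**Figure D2:**
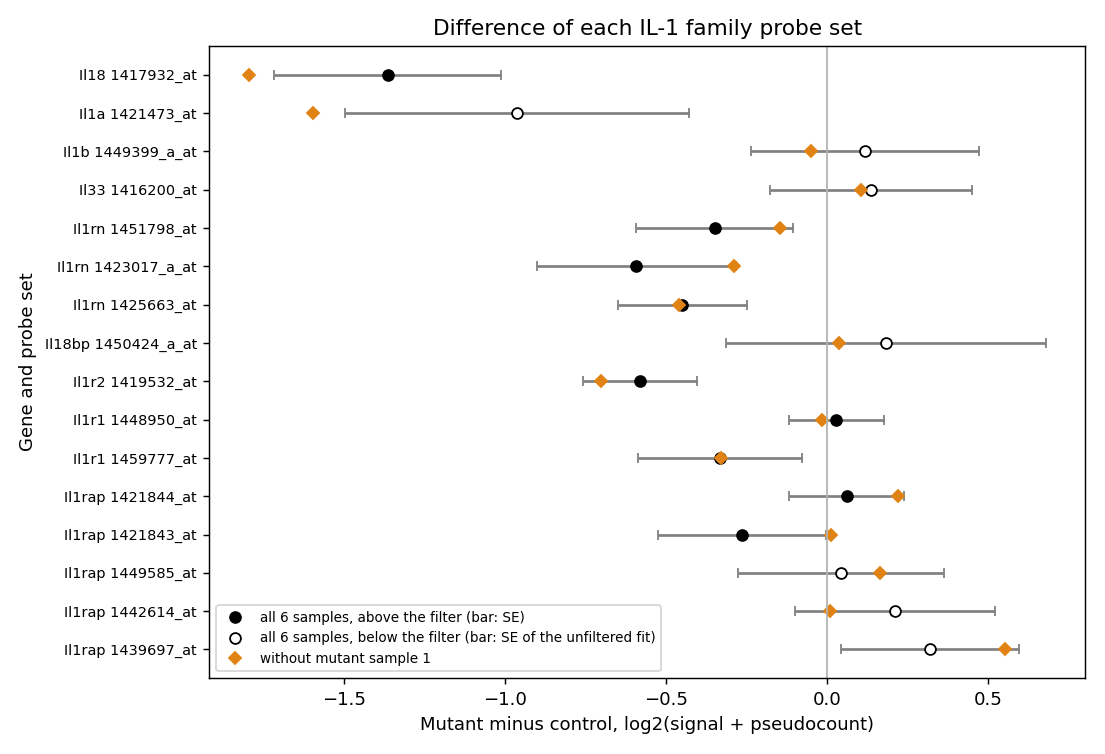
Mutant minus control difference on the log2(signal + 24.5) scale for each of the 16 probe sets, with SE bars, and the same difference without mutant sample 1 as diamonds. Il18 at -1.36, Il1a at -0.96 and Il1r2 at -0.58 lie lowest among the genes' brightest probe sets, while Il1r1 and Il1rap lie at 0.03 and 0.06.

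The profile of Il18 over the 6 arrays was compared with that of each of 11588 other genes by the root mean square difference of the centred log2 values, so a smaller value means a more similar profile. The median over all genes was 0.87. The 5 nearest genes were Tmem229b (0.30), Lce1d (0.31), Sdcbp2 (0.33), Lce1i (0.33) and Klk7 (0.34). Lce1d and Lce1i encode late cornified envelope proteins, and Klk7 is a protease that cuts corneodesmosomes in the stratum corneum. Klk7 had 9221, 7344 and 2425 in mutant samples, against 11555, 11514 and 10742 in control samples. Tmem229b, a membrane protein, had 407.1, 284.9 and 224.0 in mutant samples, against 767.9, 684.5 and 738.5 in control samples. The groups overlapped for Lce1d (11403 in mutant sample 1, 9116 in control sample 1) and for Sdcbp2 (819.2 and 817.6 in the same samples). In all 5 genes mutant sample 3 was the lowest of the 6, as it was for Il18. They were picked for likeness to Il18 over these same arrays, so this likeness is no separate result.

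Of the tested family genes, Il1r2 had a value of 0.54, with 57 of the 11588 genes nearer. Il1rn had 0.82 with 3304 genes nearer, Il1r1 0.83 with 3633 nearer and Il1rap 0.95 with 9142 nearer. The genes below the filter were not ranked, and their values were 0.35 for Il1a, 0.85 for Il1b, 0.90 for Il18bp and 0.91 for Il33. That of Il1a rests on the pseudocount, since mutant samples 2 and 3 lay within the background range: its difference was -1.25 with the pseudocount at the 10th percentile and -0.57 at the 40th. The measure includes the group difference for which Il18 was chosen, and it describes these 6 arrays only.

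**Figure D3:**
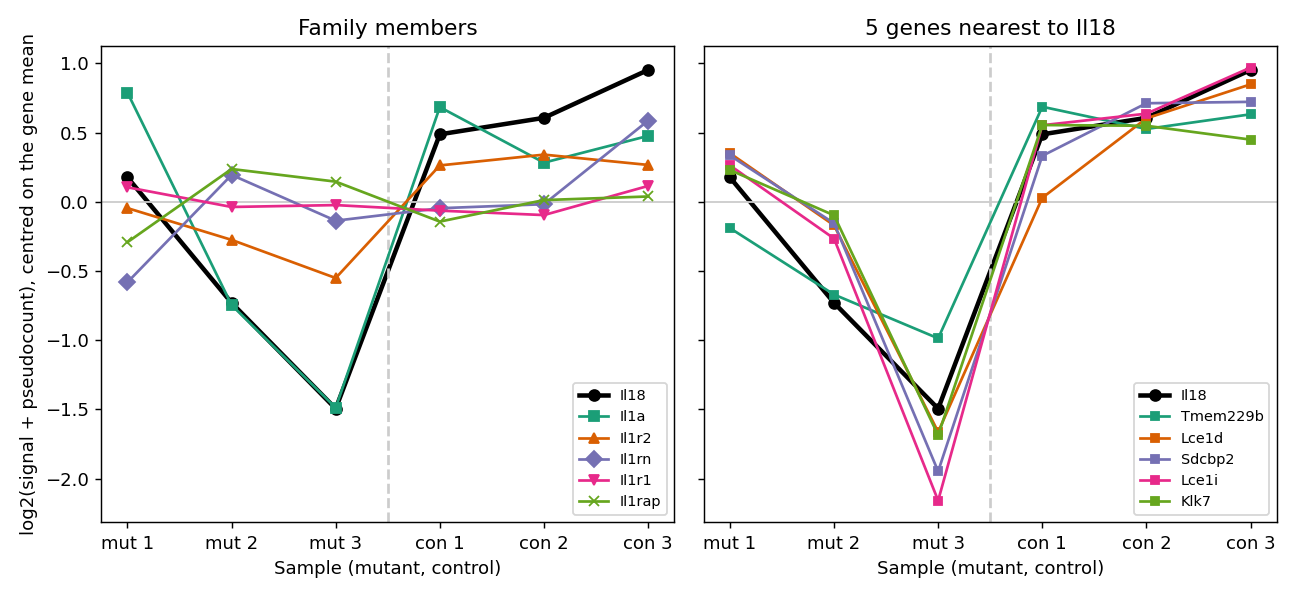
Log2(signal + 24.5) of each gene in each sample, centred on the gene's mean, for Il18 with 5 family members (left) and with its 5 nearest genes (right). Lines join the values of 1 gene and imply no order of samples. Il18, Il1a and the 5 nearest genes (picked for likeness to Il18) are lowest in mutant sample 3. Il1r1 and Il1rap stay within about 0.3 of their means.

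Markers of the granular layer, the last living layer of the epidermis, were set beside these profiles. The summed signal of 8 such genes was 68418, 81539 and 65249 in mutant samples, against 93685, 84830 and 93498 in control samples. The sums were apart only with Flg counted, which had 2967, 647 and 252 in mutant samples, against 11500, 8080 and 13151 in control samples. With Flg left out they overlapped. None of the 8 genes passed limma's adjusted threshold with all samples (0.00444% of all tested probe sets). At an unadjusted p under 0.05 there were 4 of 8, all lower (Flg, Cdsn, Klk5 and Tgm3), where 1.97% of all tested probe sets were. The median difference was -0.45, against -0.02 over all tested probe sets. All 8 differences were negative (55.6% of all tested probe sets), and 6 of 8 without mutant sample 1 (52.3% of all), where Tgm1 was 0.31 and Lor 0.08. Flg, the filaggrin precursor, had a difference of -3.70 and passed as lower without mutant sample 1, where 0.0622% of all did, while with all samples Lor and Hrnr were near 0 (-0.08 and -0.04). The summed signal of 9 general keratinocyte markers overlapped, at 139439 to 191828 in mutant and 148433 to 185039 in control samples. The lowest sum was that of mutant sample 1. Of these 9 differences, 7 were negative with all samples (median -0.11) and 1 without mutant sample 1 (median 0.12). The part of granular layer RNA in the Il18, Il1a and Il1r2 signals was not tested. In whole skin, fewer cells of a type and less RNA per cell cannot be told apart.

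The neighbouring family genes were read next. In RefSeq, 6 family genes follow one another on chromosome 2 with no other coding gene between them, in the order Il1f8, Il1f9, Il1f6, Il1f5, Il1f10 and Il1rn. Il1f6, Il1f8 and Il1f9 encode the IL-36 alpha, beta and gamma cytokines, and Il1f5 the IL-36 receptor antagonist, all known from epidermis. Il1f8 had 1426, 1733 and 1052 in mutant samples, against 2500, 2608 and 1814 in control samples. These groups were apart by a narrow margin, with a log2 difference of -0.72 (SE 0.21) that did not pass (limma unadjusted p = 0.00809, adjusted p = 0.9999). Il1f5 had 5267, 7037 and 4368 in mutant samples, against 7362, 7672 and 6861 in control samples, so its groups overlapped. Its difference was -0.42 (SE 0.17, limma unadjusted p = 0.0371), or -0.26 without mutant sample 3 (limma unadjusted p = 0.146). Il1f9 differed by -0.33 (SE 0.19), or -0.11 without mutant sample 3, with overlapping groups. Il1f6 differed by 0.16 (SE 0.29) and Il1f10 by 0.03 (SE 0.38), both within their SE of 0, and both were negative without mutant sample 2 (-0.09 and -0.42).

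Of the 12 other ligands and receptors listed, 11 were matched to probe sets and 7 were tested. None passed the limma adjusted threshold in either direction, with all samples or without mutant sample 1. At an unadjusted p under 0.05 there were 2 of 7, Il1f8 and Il1f5, both lower, where 1.97% of all tested probe sets were. Groups were apart in 1 of the 7, Il1f8, lower in mutant samples, where 5.03% of all tested probe sets were apart in that direction. The median difference of the 7 was -0.24. Their receptors included Il1rl2, the IL-36 receptor chain, at -0.24 (SE 0.21; -0.06 without mutant sample 2), and Sigirr, an inhibitory receptor, at 0.02 (SE 0.28). Il18r1, the binding chain of the IL-18 receptor, was dim, at 83.9, 31.6 and 32.5 in mutant samples, against 4.92, 15.8 and 39.98 in control samples. Il18rap, its signalling partner, was at 84.8, 109.8 and 22.5 in mutant samples, against 31.4, 31.3 and 85.2 in control samples. Neither receptor chain passed the filter.

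In the relay below the receptors, 17 of 20 listed genes were matched and 16 tested, with a median difference of -0.06. None passed the limma adjusted threshold, with all samples or without mutant sample 1. At an unadjusted p under 0.05 there was 1 of 16, against 3.42% of all tested probe sets, so the count is near that of all probe sets. That gene was Nfkbia, the NF-kappa B inhibitor that the pathway itself induces, with 10328, 6892 and 6359 in mutant samples, against 5508, 6548 and 4962 in control samples. The groups overlapped, and its difference was 0.44 (SE 0.19), or 0.23 without mutant sample 1. Traf6, the ubiquitin ligase below the IRAK kinases, had 500.3, 575.5 and 415.3 in mutant samples, against 639.7, 606.4 and 613.0 in control samples. Its groups were apart, with a difference of -0.32 (SE 0.16, limma unadjusted p = 0.0871), or -0.20 without mutant sample 3. Groups apart and lower were found in 1 of the 16 genes, against 5.03% of all tested probe sets, so this count is also near that of all. Peli1, an IRAK-binding ubiquitin ligase, differed by -0.25 (SE 0.16), from -0.40 with mutant sample 1 left out to -0.12 with mutant sample 3 left out, and Myd88, the adaptor, by -0.07 (SE 0.13).

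Among the inflammasome and processing genes, 13 of 16 were matched and 9 tested, with a median difference of -0.16. None passed the limma adjusted threshold, with all samples or without mutant sample 1. At an unadjusted p under 0.05 there was 1 of 9, against 3.42% of all tested probe sets. It was Nlrp10, a NOD-like receptor of keratinocytes, with 1096, 1100 and 367 in mutant samples, against 1518, 1522 and 1657 in control samples. All mutant samples were lower than all controls, which held for 1 of the 9 genes and for 5.03% of all tested probe sets. Mutant sample 3 was the furthest below the controls. The difference was -1.01 (SE 0.36, limma unadjusted p = 0.0217, adjusted p = 0.9999), -1.26 without mutant sample 1 and -0.50 without mutant sample 3. With array weights it was -1.70 and passed (limma adjusted p = 0.0349), where 0.471% of all tested probe sets were called. In that fit mutant sample 3, the furthest below the controls, weighed 3.13, against 0.257 and 0.56 for mutant samples 1 and 2. Casp1, the protease that matures IL-18, had 476.9, 203.4 and 353.4 in mutant samples, against 367.2, 431.0 and 426.5 in control samples, with a difference of -0.30 (SE 0.27). Leaving out 1 sample took Casp1 to between -0.56 (without mutant sample 1) and 0.01 (without mutant sample 2). Pycard, the inflammasome adaptor, differed by -0.15 (SE 0.28), and by 0.19 without mutant sample 1. Gsdmd, the pore-forming gasdermin, differed by -0.30 (SE 0.20), and Nek7, the kinase that binds NLRP3, by 0.27 (SE 0.17; 0.11 without mutant sample 1).

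Genes that IL-1 or IL-18 induces were mostly dim: all 17 were matched and 5 tested, with a median difference of -0.29. None passed the limma adjusted threshold, with all samples or without mutant sample 1. At an unadjusted p under 0.05 there was 1 of 5, against 3.42% of all tested probe sets. It was Cxcl1, a neutrophil chemokine, with 251.6, 190.0 and 296.6 in mutant samples, against 352.4, 322.6 and 348.8 in control samples. Its groups were apart, with a difference of -0.45 (SE 0.20, limma unadjusted p = 0.0484), or -0.30 without mutant sample 2. Groups were apart in 2 of the 5 genes, Cxcl1 and Icam1, both lower, against 5.03% of all tested probe sets. Icam1, the leukocyte adhesion molecule, differed by -0.29 (SE 0.16) with groups apart, and S100a8, an alarmin of stressed keratinocytes and neutrophils, by -0.35 (SE 0.32) with overlapping groups. Leaving out 1 sample took S100a8 to between -0.68 (without mutant sample 1) and -0.11 (without mutant sample 2). Ifng, the classical product of cells that answer IL-18, had signals of at most 18.3 in mutant and 5.85 in control samples, within the range of the Y-linked background.

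**Figure D4:**
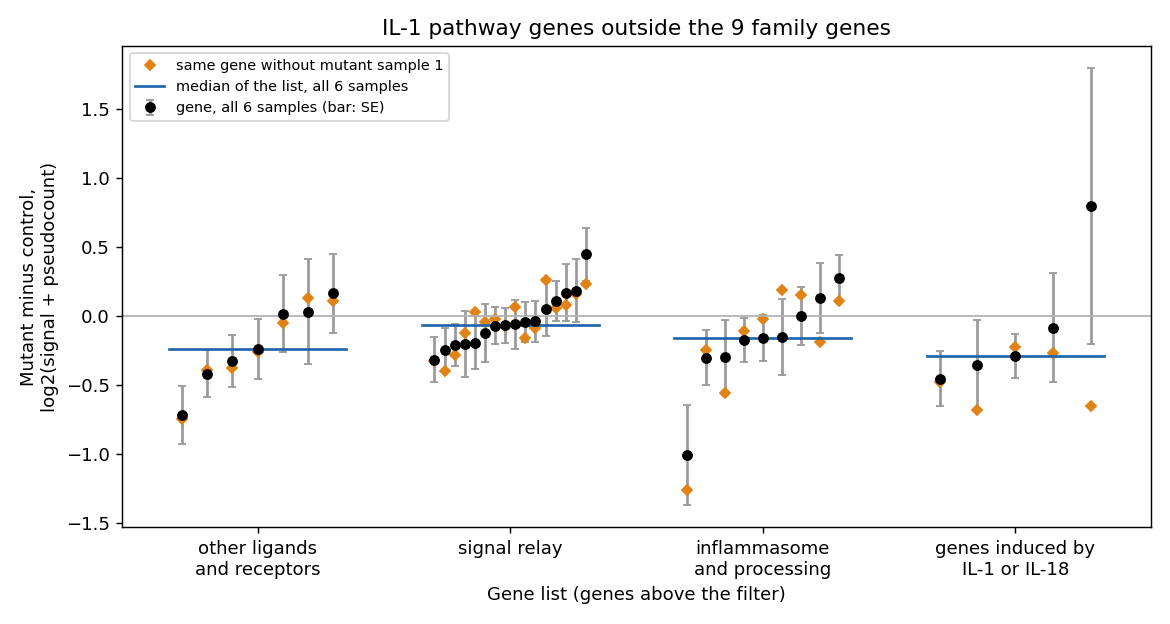
Mutant minus control difference on the log2(signal + 24.5) scale for the tested genes of 4 pathway lists, with SE bars, the same values without mutant sample 1 as diamonds, and list medians as horizontal lines. The medians lie between -0.29 and -0.06, and the lowest gene is Nlrp10 at -1.01.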

How the data were processed

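Total RNA of 6 skin samples was extracted with a Qiagen kit and biotin-labelled by Affymetrix protocols, per the labels. The authors deposited MAS5 signals, an intensity per probe set, per the submitters' processing notes (no version); the values show scaling of each array to a common trimmed mean (2% at each end). Groups follow the titles. Affymetrix controls (64 probe sets) were removed. The tests used limma (version 3.58.1, R 4.3.3; lmFit, eBayes with a trend, two-sided, Benjamini-Hochberg over 22518 probe sets) on log2(signal + 24.5), the 20th percentile of all values. The filter kept probe sets with a mean log2 above the median. For each gene the probe set of highest mean stands for it. Symbols come from the platform annotation, updated through gene identifiers against RefSeq (GRCm38.p6): 34958 probe sets had 1 symbol, 932 several and 9211 none. Named genes are all 9 members, the 3 of each pathway list with the smallest p, and the 5 nearest to Il18 in profile. Other named genes (receptors, Il1f6, Il1f10, Casp1, Pycard, Myd88, Lcn2, S100a9, Ifng and markers) were picked with their values known. The members and lists were chosen with earlier results of these data known. The alternatives were other pseudocounts, filters, normalizations, variance models, array weights, a replicate block and each sample left out. Promoter sequences are from RefSeq, and all 9 genes were matched by symbol. Same-numbered samples deviated with correlations of -0.052, -0.073 and 0.11, so the numbers were not taken as pairs. The number of arrays limits the precision. Figures used matplotlib 3.10.9.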

Additional observations from a re-analysis of the deposited data

How the results depend on the processing

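Il18, chosen for its lower signal, ranged from -1.95 with array weights to -0.96 without mutant sample 3. Il1a (-1.71 to -0.46), Il1r2 (-0.77 to -0.45) and Il1rn (-0.55 to -0.14) stayed negative in every setting run. Where the groups were apart, as for Il18 and Il1r2, leaving out 1 sample could not change the sign. With array weights Il1r2 passed (-0.77), which makes 1 family gene past the threshold, and 0 in every other setting run. The count of probe sets past the threshold was 1 with all samples, 0 with the filter at the 75th percentile, 106 with array weights (47 higher, 59 lower), 8 with the replicate block and 1 to 39 with 1 sample left out, with 39 without mutant sample 1, 2 without mutant sample 2 and 3 without control sample 2. The block changed no family gene's call, and same-numbered samples gave no sign of pairing. With 1 sample left out, Il1r1 ranged from -0.015 to 0.094 (-0.011 without control sample 2), Il1rap from -0.042 to 0.22 and the second Il1rap probe set from -0.47 to 0.013, so their signs are not settled. Il1r1 was -0.15 as the mean over its probe sets. That mean includes the second Il1r1 probe set (-0.33), whose signals of 1.36 to 21.3 lay within the range of the Y-linked background. Il1rap was -0.037 with the Xist covariate, which was added after the data were seen. The causes of the other sign changes were not tested. Il1b, Il33 and Il18bp, below the filter, also took either sign. The median of all tested probe sets was -0.025, and -0.017 after quantile normalization and -0.036 after median centring. Of 317 tested values of genes or probe sets under these settings, 3 changed their call, all with array weights: Il1r2, Il1f8 (-0.98) and Nlrp10 (-1.70). In that fit mutant sample 3 weighed 3.13, against 0.257 and 0.56 for mutant samples 1 and 2. Il18 and the genes below the filter had no call. Signals near the Y-linked background limit Il1a, Il18bp, Il18r1 and Ifng.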
